A study of Mus musculus with 4 samples.

Results

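Glucose uptake and glycolysis were followed through 10 genes in single cells of the embryonic mouse heart: the glucose transporters Slc2a1 and Slc2a3, the hexokinases Hk1 and Hk2, and Pfkl, Aldoa, Pgk1, Eno1, Pkm and Ldha of the steps from phosphofructokinase to lactate. The members were the rows of the deposited matrices that carry these symbols, 11 rows for 10 genes among 32285 genes, because 2 rows are named Aldoa. Hearts of C57BL/6J embryos at E10.5 were dissociated, red cells were lysed, and 4 libraries were made with the 10x Genomics 3′ chemistry. In 2 libraries (Wt1 and Wt2) the embryos were wild type, and in the other two (Ho1 and Ho2) they were homozygous for Cyp51 I383V, an amino acid change in the lanosterol demethylase of cholesterol synthesis that was introduced with CRISPR/Cas9, the label all 4 libraries carry as treatment. The number of embryos behind each library is not given in the labels, so p-values measure the spread between libraries only. The set was chosen by its pathway and by earlier values of these files, in which Eno1 was lower in Ho in several gates and Hk2 higher in whole Ho libraries, and their Ho and Wt values are therefore given as a description, with no test.

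Glucose enters a cell through facilitative transporters of the Slc2a family, is trapped by phosphorylation at a hexokinase, and is split and oxidised to pyruvate by the enzymes of glycolysis. Pyruvate is then either reduced to lactate by lactate dehydrogenase or passed to the mitochondria through the pyruvate dehydrogenase complex. The embryonic heart grows at low oxygen tension and is known to rely strongly on glucose and lactate metabolism before it turns to fatty acids around birth. Several of these genes are classical targets of hypoxia-inducible factors, which bind short elements with the core ACGTG or GCGTG.

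After filters on mitochondrial share, molecules, genes and doublets, 29168 cells were used: 8908 and 7154 in the Wt libraries, in number order, and 6980 and 6126 in the Ho libraries. The matrices hold 109893733, 117034633, 127018819 and 107377100 unique molecular identifiers (UMIs, 1 per captured transcript) in the same order. Cells were gated on marker genes and UMIs were summed per library in each gate, so that a level is the UMIs of a gene per 1000000 UMIs of that gate and library (CPM). Log2 differences come from fits that scale libraries by trimmed means in place of totals. Cells above a Tnnt2 threshold, cardiac troponin T of heart muscle, were split into Tnnt2+Myl2+ cells by ventricular myosin light chain (777, 1403, 2082 and 1066 cells in Wt1, Wt2, Ho1 and Ho2), Tnnt2+Shox2+ cells by a transcription factor of the sinus venosus (277, 293, 412 and 549) and the remaining Tnnt2+Myl2- cells (784, 1050, 1137 and 901). Among Tnnt2- cells, gates were set on Cdh5, the endothelial cadherin (230, 362, 228 and 152), Hapln1, a matrix link protein of the endocardial cushions (819, 936, 1111 and 612), Crabp1, a retinoic acid binding protein of neural crest and pharyngeal mesenchyme (2536, 505, 40 and 409), Upk3b, a mesothelial and epicardial membrane protein (84, 101, 65 and 136), and Epcam, an epithelial adhesion molecule (299, 144, 0 and 247). The Epcam gate is empty in Ho1 and entered no test, and the Crabp1 gate holds only 40 cells there. Of 18437 Tnnt2- cells, 4764 passed several gates and 4657 passed none, and both were left out. Among them were 4117 of the 5100 Tnnt2- cells past Cdh5, which also passed Hapln1. The Cdh5 gate therefore holds only a minority of the cells past Cdh5.

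The gates were checked against their defining genes and further markers. Tnnt2 stood at 3434 ± 144 CPM (SD, n = 4 libraries) in Tnnt2+Myl2+ cells, at 3483 ± 90.5 in Tnnt2+Myl2- cells and at 41.8 ± 13.6 in Cdh5 cells. Pecam1, an endothelial adhesion molecule, was at 166 ± 30.6 CPM in Cdh5 cells and 2.09 ± 1.61 in Tnnt2+Myl2+ cells. Periostin (Postn), a matrix protein of cushion mesenchyme, was at 117 ± 14.4 CPM in Hapln1 cells, the epicardial factor Wt1 at 111 ± 11.1 in Upk3b cells, and the pacemaker channel Hcn4 at 88.0 ± 15.1 in Tnnt2+Shox2+ cells. The 6 epithelial markers, led by Epcam, summed to 2606, 2367 and 2788 CPM in the Epcam cells of Wt1, Wt2 and Ho2. In Crabp1 cells 6 markers of pharyngeal or neural crest mesenchyme, led by Crabp1 itself, summed to 1119.9, 599.6, 581 and 614 CPM in Wt1, Wt2, Ho1 and Ho2, and 6 markers of cushion mesenchyme to 455, 514, 991 and 353. Crabp1 alone gave 911, 483, 526 and 456 CPM of the first sums, in the same order of libraries. Because the cells were selected on that gene, the order of the 2 kinds of marker within a library is not read. The cushion sum was highest in the 40 Crabp1 cells of Ho1. The 10 cardiomyocyte markers were also highest there, at 1546 CPM against 361, 751 and 706 in Wt1, Wt2 and Ho2. The Upk3b gate also held Myl7, an atrial myosin light chain, at 2701 ± 608 CPM, against 19162 ± 1076 in Tnnt2+Myl2+ cells.

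The promoters of 5 members are shown: those of Slc2a1 and Hk1, whose levels differ strongly between gates, of Hk2 and Eno1, which were chosen for their Ho and Wt values, and of Ldha at the step to lactate. They are RefSeq promoters of GRCm38.p6, from 250 bases before to 50 bases after a gene's start, and are printed 5′ to 3′ on the strand of the gene. Capitals mark the letters ACGTG or GCGTG on either strand, so that CACGT and CACGC are their reverse complements, and CACGTG holds ACGTG on both strands. The Slc2a1 promoter, chr4:119108495-119108794 on the plus strand, holds 1 match to each. The first of 2 Hk1 promoters, chr10:62379859-62380158 on the minus strand, holds 0 matches, and the other, not shown, holds 2 to ACGTG and 3 to GCGTG. The Hk2 promoter, chr6:82774405-82774704 on the minus strand, holds 2 matches to ACGTG. The first of 3 Eno1 promoters, chr4:150236458-150236757 on the plus strand, holds 2 matches to GCGTG and 0 to ACGTG. The first of 2 Ldha promoters, chr7:46845554-46845853 on the plus strand, holds 5 matches to ACGTG and 2 to GCGTG.
Slc2a1: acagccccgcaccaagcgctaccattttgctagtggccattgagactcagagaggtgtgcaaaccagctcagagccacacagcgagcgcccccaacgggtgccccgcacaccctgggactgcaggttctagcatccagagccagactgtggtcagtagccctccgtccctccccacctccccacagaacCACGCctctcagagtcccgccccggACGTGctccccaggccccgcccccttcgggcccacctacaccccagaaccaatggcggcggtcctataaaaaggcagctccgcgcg
Hk1: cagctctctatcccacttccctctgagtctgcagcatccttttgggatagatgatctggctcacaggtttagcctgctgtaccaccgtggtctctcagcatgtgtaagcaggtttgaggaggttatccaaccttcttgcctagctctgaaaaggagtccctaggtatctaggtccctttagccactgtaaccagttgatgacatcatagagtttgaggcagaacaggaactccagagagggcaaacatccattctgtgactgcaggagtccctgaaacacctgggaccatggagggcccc
Hk2: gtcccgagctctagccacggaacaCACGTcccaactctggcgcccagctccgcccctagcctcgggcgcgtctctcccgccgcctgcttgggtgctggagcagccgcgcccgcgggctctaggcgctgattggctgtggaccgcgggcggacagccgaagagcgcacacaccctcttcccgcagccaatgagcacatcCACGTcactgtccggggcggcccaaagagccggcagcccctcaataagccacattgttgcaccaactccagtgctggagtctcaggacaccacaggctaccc
Eno1: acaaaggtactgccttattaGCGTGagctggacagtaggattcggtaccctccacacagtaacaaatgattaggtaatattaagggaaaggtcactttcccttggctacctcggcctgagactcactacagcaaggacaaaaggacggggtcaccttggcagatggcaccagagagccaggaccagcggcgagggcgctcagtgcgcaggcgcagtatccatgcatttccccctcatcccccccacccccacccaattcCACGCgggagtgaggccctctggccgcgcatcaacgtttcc
Ldha: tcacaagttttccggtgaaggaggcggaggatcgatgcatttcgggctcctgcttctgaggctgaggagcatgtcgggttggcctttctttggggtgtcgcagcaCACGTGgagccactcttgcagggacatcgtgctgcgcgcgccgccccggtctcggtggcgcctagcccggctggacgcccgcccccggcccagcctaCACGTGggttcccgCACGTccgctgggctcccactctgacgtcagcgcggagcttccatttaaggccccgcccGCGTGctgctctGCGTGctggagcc
RefSeq entries were found for 9 of the 10 genes, all but Slc2a3. Among the first-listed promoters of these 9 genes, 4 held ACGTG and 4 held GCGTG, while those of Hk1, Aldoa and Pkm held neither. With every listed promoter counted, all 9 genes held ACGTG or GCGTG in some promoter. In the whole table of 32851 promoters, 19.6% held ACGTG, 32.4% held GCGTG and 43.8% held either, beside 6 of the 9 first-listed promoters with either. No such share was computed for genes with several listed promoters, so the count over every listed promoter has no background. A match is a stretch of letters and was not tested as a binding site.

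In GENCODE annotation of GRCm38, Slc2a1 (chromosome 4, 119108711 to 119137983) and Eno1 (chromosome 4, 150236721 to 150248879) lie on the same chromosome, as do Hk2 (chromosome 6, 82725025 to 82774454) and Slc2a3 (chromosome 6, 122727809 to 122801640), Ldha (chromosome 7, 46841475 to 46855627) and Aldoa (chromosome 7, 126795234 to 126800751), and Hk1 (chromosome 10, 62268855 to 62379908) and Pfkl (chromosome 10, 77986947 to 78010083). Pkm lies on chromosome 9, 59656368 to 59679375. Pgk1, on chromosome X, 106187100 to 106203699, is the single X-linked member. The second row named Aldoa, a separate gene model just upstream on the same strand, reached at most 0.108 CPM in Tnnt2+Myl2+ cells, so Aldoa below is the first row.

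Over the 7 tested gates, 9 of the 10 members had their highest mean level in Tnnt2+Myl2+ cells, Eno1 being the exception, and for 8 members the 3 Tnnt2+ gates held the first 3 places. In the untested Epcam gate Slc2a3 was also measured, at 198 CPM in Ho2, with 52.8 and 18.9 in Wt1 and Wt2. For 3 members, Slc2a1, Hk1 and Aldoa, the lowest Tnnt2+ library lay above every Tnnt2- library. Against the mean of the other gates, 7 members were higher in Tnnt2+Myl2+ cells by at least 2-fold with an adjusted p under 0.05 (Slc2a1, Slc2a3, Hk1, Hk2, Aldoa, Pgk1 and Ldha), where 11.2% of the 13406 genes tested were higher by that rule and 9.44% lower. The median log2 difference of the 10 members was 1.31, beside -0.01 over all genes. In Tnnt2+Myl2- cells 4 members were higher (Slc2a1, Slc2a3, Hk1 and Aldoa, where 9.82% of genes were higher and 3.88% lower), with a median of 0.63, and in Tnnt2+Shox2+ cells 1 was higher (Hk1, where 9.7% of genes were higher and 5.89% lower), with a median of 0.38. Over the 7 gates, 24 of 70 member and gate results passed.

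**Figure D1:**
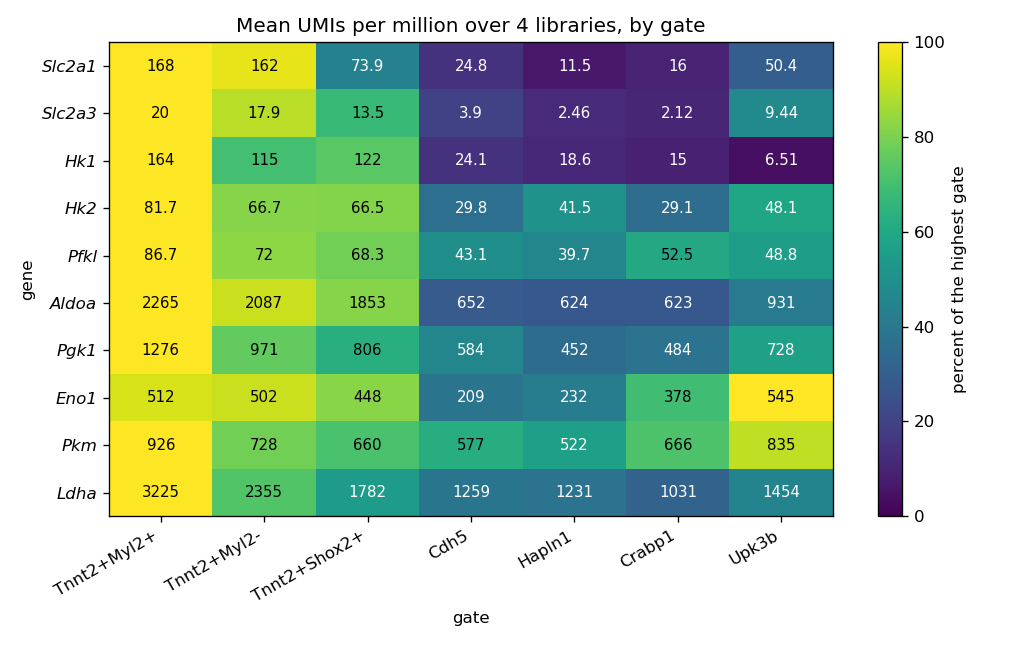
Mean level of the 10 genes (rows) in the 7 tested gates (columns) in CPM over 4 libraries, printed in each cell and coloured by the percent of that gene's highest gate. The Tnnt2+ gates on the left are brightest for most genes, Hk1 falls from 164 to 6.51 between Tnnt2+Myl2+ and Upk3b cells, and Eno1 is highest in Upk3b cells.

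Slc2a1 encodes GLUT1, the widespread facilitative transporter of fetal tissues. In Tnnt2+Myl2+ cells it measured 165 and 151 CPM in Wt1 and Wt2 and 157 and 200.4 CPM in Ho1 and Ho2, and in Hapln1 cells 12.6 and 10.9 CPM in Wt1 and Wt2 and 10.9 and 11.7 CPM in Ho1 and Ho2. The ranges of these gates are far apart, with a log2 difference from the other gates of 2.42 (SE 0.08) in Tnnt2+Myl2+ cells (edgeR adjusted p = 1.41e-19) and -2.44 (SE 0.12) in Hapln1 cells (adjusted p = 6.98e-15). The order of gates was Tnnt2+Myl2+ (168 ± 22.1 CPM), Tnnt2+Myl2- (162 ± 19.0), Tnnt2+Shox2+ (73.9 ± 8.54), Upk3b (50.4 ± 5.97), Cdh5 (24.8 ± 11.03), Crabp1 (16.0 ± 1.05) and Hapln1. Tnnt2+Myl2+ overlapped Tnnt2+Myl2- and Cdh5 overlapped Crabp1, and the libraries of all other neighbours in that order were separate.

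Slc2a3 encodes GLUT3, a transporter of higher affinity known from neurons and the placenta. It followed the same order at the top at lower counts, with 19.98 ± 3.15 CPM in Tnnt2+Myl2+ cells, 17.9 ± 2.10 in Tnnt2+Myl2- cells and 2.46 ± 0.351 in Hapln1 cells. The lowest mean was in Crabp1 cells, at 2.12 ± 1.41 CPM. Every pair of neighbouring gates overlapped. Tnnt2+Myl2+ and Hapln1 cells were well apart, with log2 differences from the other gates of 1.92 (SE 0.11) and -1.93 (SE 0.17) (edgeR adjusted p = 1.26e-14 and 3.02e-10).

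Hk1 and Hk2 catalyse the same first step. Hk1 is the constitutive hexokinase of most tissues, and Hk2 is the form regulated by insulin and hypoxia. Hk1 measured 171 and 161 CPM in Wt1 and Wt2 and 156 and 168 CPM in Ho1 and Ho2 in Tnnt2+Myl2+ cells and 6.25 and 7.77 CPM in Wt1 and Wt2 and 5.25 and 6.78 CPM in Ho1 and Ho2 in Upk3b cells, a 25.2-fold range of mean levels that was the widest of the 10 members over the 7 tested gates. Its log2 difference was 2.81 (SE 0.06) in Tnnt2+Myl2+ cells and -2.85 (SE 0.16) in Upk3b cells (adjusted p = 9.55e-23 and 1.05e-13). The level of Hk1 in Upk3b cells was 3.97% of that in Tnnt2+Myl2+ cells. The cardiomyocyte transcripts Tnnt2, which the gate limits, Actc1 and Myl7 stood there at 3.68%, 0.729% and 14.1% of their levels in Tnnt2+Myl2+ cells, and their part in the level of Hk1 was not tested.

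Hk2 varied less, from 81.7 ± 14.9 CPM in Tnnt2+Myl2+ cells to 29.1 ± 7.58 in Crabp1 cells. Every neighbouring pair of gates in its order overlapped. It stayed at 48.1 ± 10.2 CPM in Upk3b cells, where the log2 difference from the other gates was -0.03 (SE 0.11). Counted per UMI of Hk2, Hk1 gave 2.06 ± 0.401 UMIs in Tnnt2+Myl2+ cells, 0.865 ± 0.198 in Cdh5 cells, 0.453 ± 0.0611 in Hapln1 cells and 0.140 ± 0.0423 in Upk3b cells (SD, n = 4). Hk1 thus outnumbered Hk2 in each library of the 3 Tnnt2+ gates, and Hk2 outnumbered Hk1 in each library of Hapln1 and Upk3b cells. Transcript length does not enter this ratio, since each captured 3′ end is counted once.

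**Figure D2:**
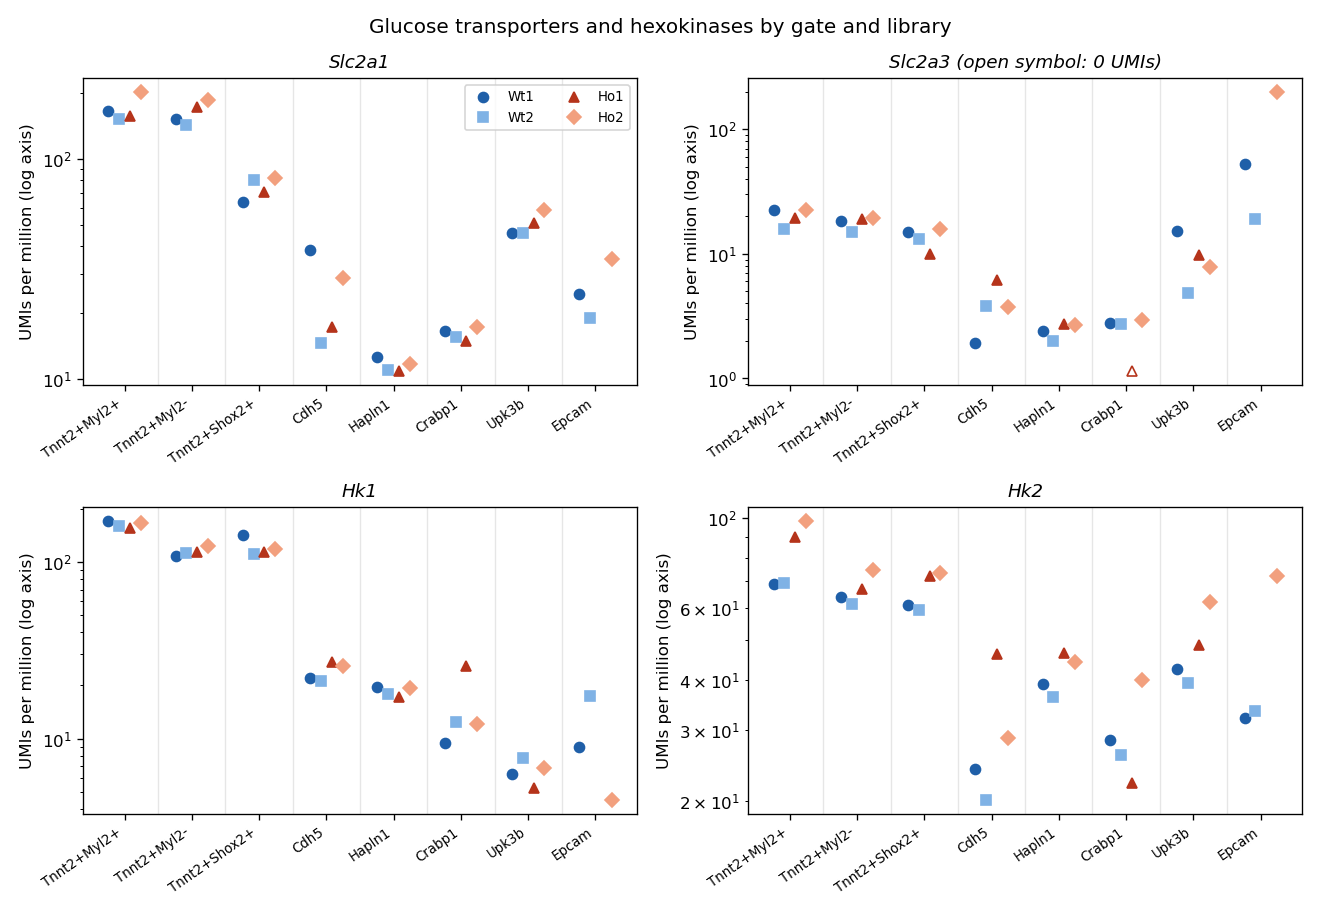
CPM (log axis) of Slc2a1, Slc2a3, Hk1 and Hk2 in each gate, with 1 symbol for each library (Wt1 and Wt2 in blues, Ho1 and Ho2 in reds, and an open symbol for 0 UMIs). Slc2a1 and Hk1 drop between the Tnnt2+ gates and the others, Hk2 keeps a narrower range, and in the Epcam gate Slc2a3 reaches 198 in Ho2.

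Pfkl, the liver-type subunit of phosphofructokinase, passed in no gate against the others, with log2 differences between -0.72 in Hapln1 cells and 0.95 in Tnnt2+Myl2+ cells, both under the 2-fold limit. Aldoa, which splits fructose bisphosphate, measured 2254 and 2399 CPM in Wt1 and Wt2 and 1952 and 2454 CPM in Ho1 and Ho2 in Tnnt2+Myl2+ cells and 624 ± 53.1 in Hapln1 cells. It was higher by 1.46 (SE 0.05) in Tnnt2+Myl2+ and 1.13 (SE 0.05) in Tnnt2+Myl2- cells, and lower at -1.08 (SE 0.06) in Hapln1 and -1.14 (SE 0.06) in Crabp1 cells, all log2 differences (largest edgeR adjusted p of the 4 = 1.5e-14, in Crabp1 cells). Both lower values came under the 2-fold limit with scaling by total UMIs (-0.97 in Hapln1 and -0.98 in Crabp1 cells) and with the cells past both Cdh5 and Hapln1 as a further gate (-0.94 and -0.99). Libraries of the Cdh5, Hapln1 and Crabp1 gates overlapped for Aldoa, and those of Upk3b cells (931 ± 19.8 CPM) stood between them and the Tnnt2+ gates.

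Pgk1, phosphoglycerate kinase and a first ATP-yielding step, measured 1276 ± 93.6 CPM in Tnnt2+Myl2+, 971 ± 41.6 in Tnnt2+Myl2- and 806 ± 42.2 in Tnnt2+Shox2+ cells. It passed in Tnnt2+Myl2+ cells alone, at 1.23 (SE 0.06) (adjusted p = 3.41e-15). Ldha, which turns pyruvate into lactate, was spread in the same way, at 3225 ± 247, 2355 ± 94.96 and 1782 ± 194 CPM in the 3 Tnnt2+ gates and 1031 ± 259 in Crabp1 cells. Its log2 difference was 1.39 (SE 0.08) in Tnnt2+Myl2+ cells (adjusted p = 1.73e-14).

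Pkm, pyruvate kinase of muscle and proliferating cells, was the most even member. Its mean level ranged 1.77-fold, from 926 ± 127 CPM in Tnnt2+Myl2+ cells to 522 ± 79.5 in Hapln1 cells, all neighbours overlapped, and it passed in no gate. In these 2 gates it missed only the 2-fold limit, at 0.75 (SE 0.09) and -0.57 (SE 0.10) (edgeR adjusted p = 2.33e-08 and 1.27e-05).

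**Figure D3:**
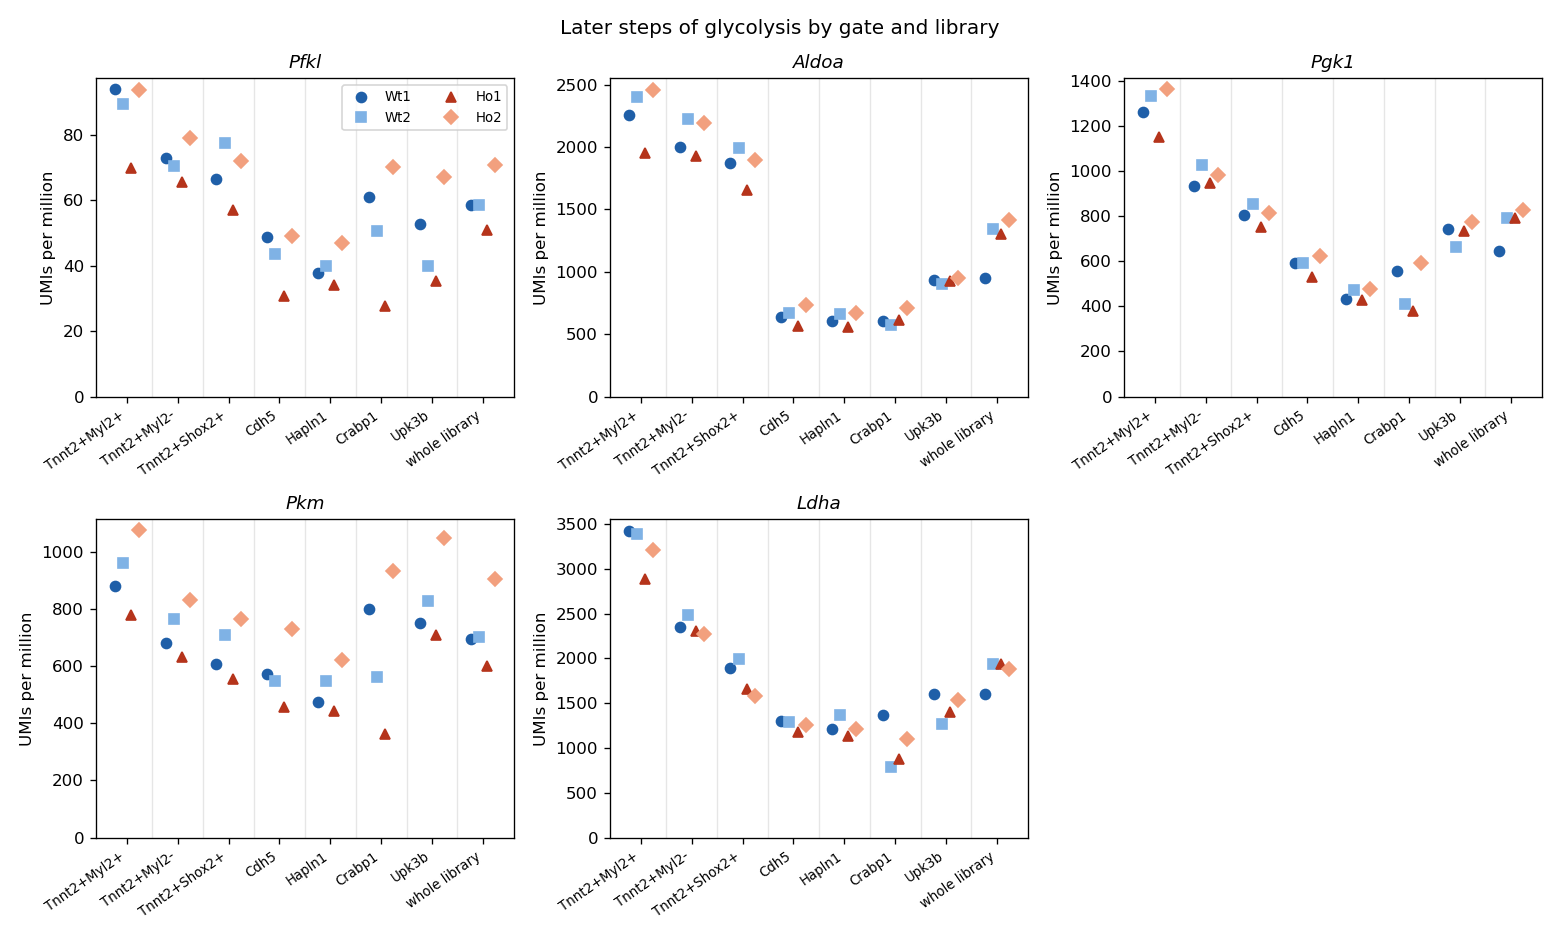
CPM of Pfkl, Aldoa, Pgk1, Pkm and Ldha in 7 gates and in whole libraries, with 1 symbol for each library. Aldoa, Pgk1 and Ldha are highest in Tnnt2+Myl2+ cells, Pkm has the narrowest range of mean levels across gates, and the triangles of Ho1 are the lowest of the 4 libraries in all 7 gates for Pfkl and Pkm.

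Eno1, the ubiquitous enolase, differed in order from the others. It measured 652 and 567 CPM in Wt1 and Wt2 and 478 and 482 CPM in Ho1 and Ho2 in Upk3b cells and 629.7 and 573 CPM in Wt1 and Wt2 and 397 and 446 CPM in Ho1 and Ho2 in Tnnt2+Myl2+ cells, ranges that overlap. Crabp1 cells held 378 ± 153 CPM, and the lowest levels were in Hapln1 (232 ± 43.9) and Cdh5 cells (209 ± 64.8), and in Cdh5 cells it was lower than in the other gates, with a log2 difference of -1.05 (SE 0.10) (adjusted p = 8.81e-10). In Cdh5 cells 3 members were lower by the rule (Slc2a1, Slc2a3 and Eno1, where 11.6% of genes were lower). The call for Slc2a3, close to the 2-fold limit, was lost in 6 of the alternative settings, among them without Wt1 (-0.76) and without Ho2 (-0.96), and that for Slc2a1 without Wt2 (-0.94). With the cells past both Cdh5 and Hapln1 as a further gate, Slc2a1 (-0.88) and Eno1 (-0.88) in Cdh5 cells also missed the limit. In Hapln1 and in Crabp1 cells 4 members were lower, Slc2a1, Slc2a3, Hk1 and Aldoa in both, beside backgrounds of 7.71% of genes lower and 9.04% higher in Hapln1 cells and 9.39% lower and 7.13% higher in Crabp1 cells. Keeping cells of several gates took Slc2a3 in Crabp1 cells (-0.93) and Hk1 and Aldoa in Hapln1 cells (-0.998 and -0.99) under the 2-fold limit. In Upk3b cells Hk1 alone was lower, where 7.87% of genes were lower and 7.63% higher.

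The direct comparison of Tnnt2+Myl2+ with Cdh5 cells passed for 9 of the 10 members, all higher in Tnnt2+Myl2+ cells, where 17.2% of genes were higher and 15% lower. The cells past both Cdh5 and Hapln1, the larger part of those past Cdh5, were not in this comparison. The log2 differences ran from 1.25 (SE 0.11) for Pfkl to 3.06 (SE 0.15) for Slc2a1, and Pkm missed the 2-fold limit at 0.92 (SE 0.12) (adjusted p = 2.41e-07). Between Tnnt2+Myl2+ and Tnnt2+Myl2- cells 0 members passed by edgeR's quasi-likelihood test with the 2-fold limit and 0 by DESeq2 (background 2.05% higher and 5.1% lower), with 8 members and 5603 of 13406 genes at an unadjusted p under 0.05 with edgeR. Hk1, Hk2, Pfkl, Aldoa, Pgk1, Pkm and Ldha were higher in Tnnt2+Myl2+ cells with an adjusted p under 0.05 and missed only the 2-fold limit. The largest of these differences was that of Hk1, 0.68 (SE 0.09), followed by Ldha, 0.62 (SE 0.12). Scaling by total UMIs in place of trimmed means brought the median of all genes in Tnnt2+Myl2+ cells against the other gates from -0.01 to -0.26. With that scaling Hk2 (0.85) and Pgk1 (0.98) in Tnnt2+Myl2+ cells fell under the 2-fold limit.

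The other enzymes of glycolysis, 21 genes of which 17 were high enough to test, were counted from a list. Of the 17, 12 were higher and 1 was lower in Tnnt2+Myl2+ cells, with a median log2 difference of 1.34, beside -0.01 over all genes, of which 11.2% were higher and 9.44% lower. The muscle phosphoglycerate mutase Pgam2 was higher by 3.72 on the log2 scale (616 ± 79.0 CPM against 6.87 ± 3.51 in Cdh5 cells), the platelet-type phosphofructokinase Pfkp by 3.41 and the muscle enolase Eno3 by 2.86. Eno2, the neuronal enolase, also passed (2.44), at a mean of only 1.93 CPM. The gene that was lower was Pgm2, of the phosphoglucomutase family, at -2.06. In Tnnt2+Myl2- cells 9 were higher and 1 was lower, and in Tnnt2+Shox2+ cells 9 were higher and 0 lower by edgeR, where 9.82% of all genes were higher and 3.88% lower in the first of these gates and 9.7% and 5.89% in the second.

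In Cdh5 cells 9 of the 17 other enzymes were lower and 1 was higher (median -1.14), where 11.6% of all genes were lower and 1411 of 13406 higher. Those lower were led by Pgam2 at -4.10, Eno3 at -4.07 and Ldhb, the heart-type lactate dehydrogenase, at -2.87. Eno2 had 0 UMIs in that gate in all 4 libraries. Against a floor of 3 UMIs over the group its mean in Tnnt2+Myl2+ cells was at least 9.49-fold higher, and the list's median was the same with Eno2 at that bound. In Hapln1 cells 8 were lower and 1 was higher, in Crabp1 cells 7 were lower and 0 higher, and in Upk3b cells 3 were lower and 2 higher. Over all genes the shares lower and higher were 7.71% and 9.04% in Hapln1, 9.39% and 7.13% in Crabp1 and 7.87% and 7.63% in Upk3b cells.

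Among 11 other transporters of glucose, lactate and pyruvate, 4 were higher and 1 was lower in Tnnt2+Myl2+ cells (median 0.85, beside -0.01 over all genes), where 11.2% of all genes were higher and 9.44% lower. The insulin-responsive Slc2a4 was higher by 2.07, at 6.03 ± 0.338 CPM, the lactate exporter Slc16a3 by 1.56, at 119.8 ± 13.5, the lactate carrier Slc16a1 by 1.32 and the mitochondrial pyruvate carrier subunit Mpc2 by 1.14. Slc2a13, a proton-coupled inositol transporter, was lower, at -2.18. In Cdh5 cells Slc2a4, Slc16a3 and Slc16a1 were lower, at -2.95, -2.14 and -2.00, where 11.6% of all genes were lower. In Upk3b cells, where 7.63% of all genes were higher, Slc16a1 was higher by 1.01.

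The second question was whether the homozygous Cyp51 variant altered these genes. Cyp51 itself was detected in both genotypes, at 41.4 and 47.1 CPM in Wt1 and Wt2 and 49.8 and 46.7 CPM in Ho1 and Ho2 in Tnnt2+Myl2+ cells. An amino acid change leaves the transcript in place, so this level does not check the genotype. For the 8 members other than Eno1 and Hk2, 0 of 64 results (7 gates and whole libraries) passed an adjusted p under 0.05 by edgeR and 0 by DESeq2, while 4 had an unadjusted p under 0.05 with edgeR, a level reached by 1.42% of all genes in Crabp1 cells, the lowest share of the 8 fits, to 9.57% in Tnnt2+Myl2+ cells, the highest. Between 0% and 0.152% of all genes passed by edgeR (0% in Tnnt2+Myl2+, Cdh5, Crabp1 cells and whole libraries, 0.152% in Tnnt2+Myl2-, 0.0346% in Tnnt2+Shox2+, 0.024% in Hapln1 and 0.0332% in Upk3b cells). DESeq2 called 13 genes in Tnnt2+Myl2+ cells and 21 in whole libraries, none of them a tested member. Over all genes, the pair of Ho libraries lay wholly above the Wt pair for 25.1% and below for 15.1% in Tnnt2+Myl2+ cells, 13% and 22.3% in Tnnt2+Myl2-, 17.4% and 16.9% in Tnnt2+Shox2+, 10.2% and 20.5% in Cdh5, 15.1% and 19.1% in Hapln1, 12% and 15% in Crabp1 and 13.4% and 19.2% in Upk3b cells. The corresponding shares in whole libraries were 14.9% and 22.7%. These shares are the background of every count of separate libraries that follows.

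**Figure D4:**
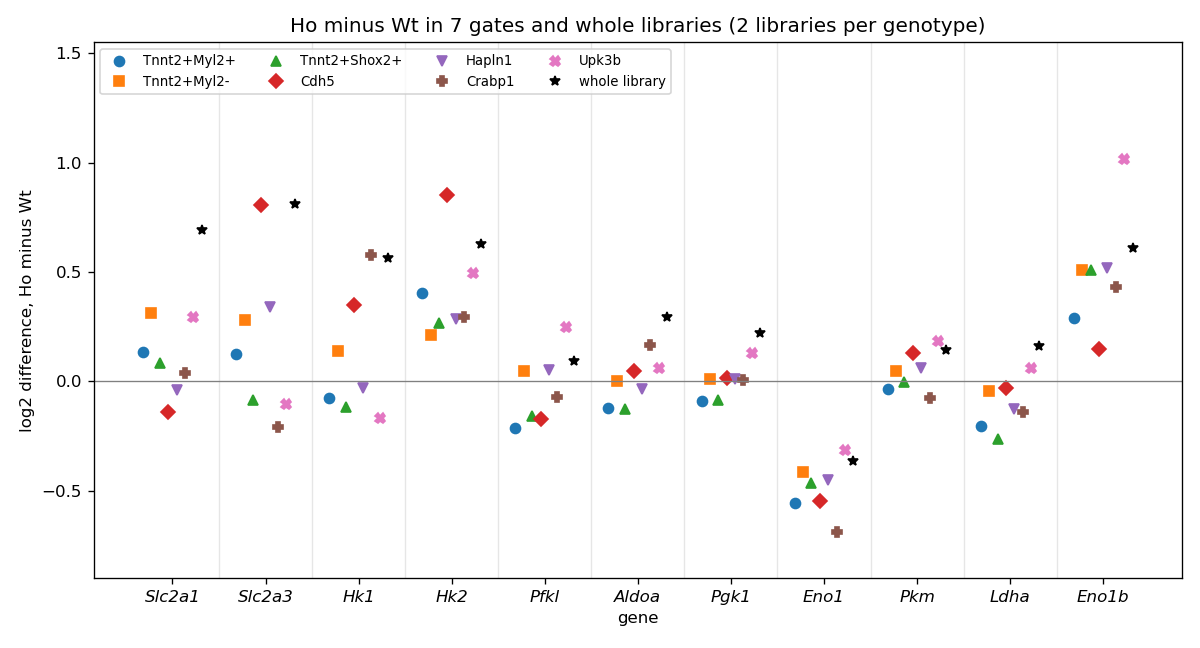
Log2 difference Ho minus Wt (vertical axis) of the 10 genes and of Eno1b (horizontal axis), with 1 symbol for each of 7 gates and for whole libraries, from 2 libraries per genotype. Eno1 lies below 0 and Hk2 and Eno1b above 0 in every fit, and the other members scatter around 0 in the gates.

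Eno1 was lower in Ho. In Tnnt2+Myl2+ cells it measured 629.7 and 573 CPM in Wt1 and Wt2 and 397 and 446 CPM in Ho1 and Ho2, in Tnnt2+Myl2- cells 599 and 560.3 CPM in Wt1 and Wt2 and 417 and 431 CPM in Ho1 and Ho2, and in Tnnt2+Shox2+ cells 551 and 485 CPM in Wt1 and Wt2 and 379.9 and 374 CPM in Ho1 and Ho2. In each of these 3 gates the Ho pair lay wholly below the Wt pair. Cdh5 cells gave 298 and 205 CPM in Wt1 and Wt2 and 144 and 190.4 CPM in Ho1 and Ho2, Hapln1 cells 281 and 256 CPM in Wt1 and Wt2 and 193 and 197 CPM in Ho1 and Ho2 and Upk3b cells 652 and 567 CPM in Wt1 and Wt2 and 478 and 482 CPM in Ho1 and Ho2, again without overlap. Crabp1 cells overlapped, at 566 and 368 CPM in Wt1 and Wt2 and 191 and 386 CPM in Ho1 and Ho2, and there Ho1 rests on 40 cells. The log2 differences were -0.56, -0.41, -0.46, -0.55, -0.45, -0.31 and -0.69 in the order given. In Crabp1 cells the difference was -0.31 without Ho1 and otherwise ran from -0.25 without Wt1 to -1.35 without Ho2, and in Upk3b cells it was -0.19 without Wt1. In Cdh5 cells the size rested on Wt1, being -0.22 without it and -0.81 without Wt2. Ho1 also stood apart in blood transcripts in several gates. In Cdh5 cells 9 erythroid genes summed to 54.6, 115, 5364 and 72.7 CPM in Wt1, Wt2, Ho1 and Ho2, led in Ho1 by the embryonic globin Hba-x at 2047 CPM with 0 of the 9 genes at 0. The 10 cardiomyocyte markers summed there to 367, 565, 1247 and 390.3 CPM, led by Myl7. The same 9 erythroid genes summed to 4.76, 12.9, 262 and 10.9 CPM in Tnnt2+Myl2+ cells and 2.28, 5.43, 695 and 8.83 in Tnnt2+Shox2+ cells, in the same order of libraries and again highest in Ho1, while in Tnnt2+Myl2- cells they came to 6.55, 8.25, 59.1 and 34.1. Their part in the results for Eno1 was not tested.

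Whole libraries gave 489 and 398 CPM in Wt1 and Wt2 and 305 and 363 CPM in Ho1 and Ho2 of Eno1, again below Wt in both Ho libraries, with a log2 difference of -0.37 that was -0.20 without Wt1. In such sums, fewer cells of a type and less RNA per cell cannot be told apart. The share of Tnnt2+ cells was 20.6% and 38.4% in Wt1 and Wt2 and 52.0% and 41.1% in Ho1 and Ho2.

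Of the 4117 cells past both Cdh5 and Hapln1, the 4102 that passed no other gate were also taken as a gate, a choice made after seeing the data. They were lower than the other gates for Slc2a1 (-1.80), Eno1 (-1.08) and Slc2a3 (-1.05), where 2719 of 13817 genes passed, 1262 of them higher. Eno1 measured 212 and 207 CPM in Wt1 and Wt2 and 153 and 157 CPM in Ho1 and Ho2 there, with no overlap between the genotypes and a log2 difference of -0.40. In that gate the Ho pair lay below the Wt pair for 23.1% of all genes and above it for 12.2%, and 0.0537% passed the adjusted p.

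Eno1b is a near-identical processed copy of Eno1 that the matrices list as a gene of its own. The aligned parts of the 2 transcripts were 99.5% identical, and 52.3% of the 100-base windows in the last 600 bases of the Eno1 transcript occur unchanged in Eno1b, where a read maps to both and is by Cell Ranger's default counted for neither. Both genes are therefore uncertain. Eno1b was listed at 2.65% and 3.46% of the UMIs of Eno1 in Wt1 and Wt2 and at 4.65% and 6.40% in Ho1 and Ho2 in Tnnt2+Myl2+ cells.

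In the direction of genotype Eno1b went the other way. It measured 14.6 and 18.9 CPM in Wt1 and Wt2 and 20.4 and 27.2 CPM in Ho1 and Ho2 in Tnnt2+Myl2- cells, 12.6 and 16.3 CPM in Wt1 and Wt2 and 20.9 and 20.8 CPM in Ho1 and Ho2 in Tnnt2+Shox2+ cells and 9.73 and 16.5 CPM in Wt1 and Wt2 and 24.3 and 28.8 CPM in Ho1 and Ho2 in Upk3b cells. The Ho pair lay wholly above the Wt pair in these gates, in Hapln1 cells and in whole libraries. The differences were 0.51 (SE 0.15), 0.51 (SE 0.16) and 1.02 (SE 0.28) on the log2 scale, with edgeR adjusted p-values of 0.495, 0.567 and 0.602, none past the threshold. The first of these was 0.33 without Ho2. In Tnnt2+Myl2- cells 4 alternative settings did pass the threshold, 1 of them without Ho1 (0.65, adjusted p = 0.000131), and so did 1 in Upk3b cells, without Ho1 (1.08, adjusted p = 0.023).

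**Figure D5:**
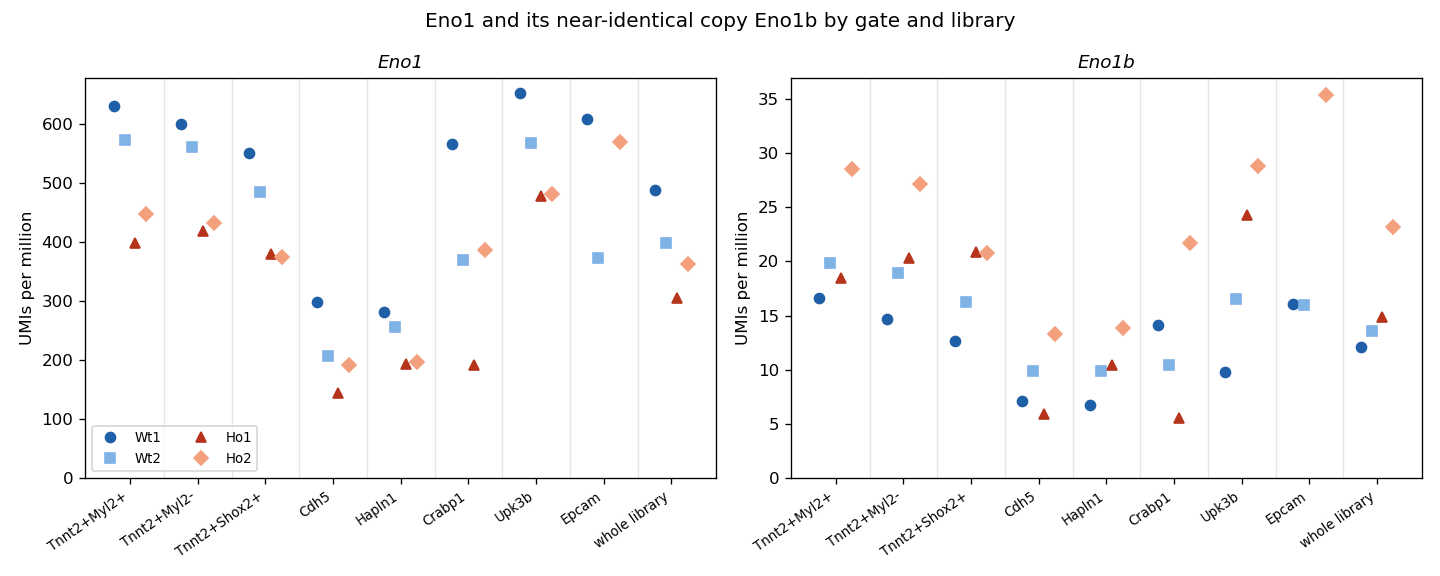
CPM of Eno1 (left) and Eno1b (right) in 8 gates and in whole libraries, with 1 symbol for each library (Ho1 has no Epcam cells). The Ho pair lies wholly below the Wt pair for Eno1 in 6 of the 7 tested gates, and above them for Eno1b in 4.

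Hk2 was higher in Ho in most gates. In Tnnt2+Myl2+ cells it measured 68.9 and 69.4 CPM in Wt1 and Wt2 and 90.2 and 98.4 CPM in Ho1 and Ho2, in Tnnt2+Myl2- cells 63.9 and 61.4 CPM in Wt1 and Wt2 and 67.1 and 74.6 CPM in Ho1 and Ho2 and in Hapln1 cells 39.0 and 36.3 CPM in Wt1 and Wt2 and 46.5 and 44.1 CPM in Ho1 and Ho2. The Ho libraries lay above the Wt libraries in 6 of 7 gates and overlapped them in Crabp1 cells, at 28.4 and 26.1 CPM in Wt1 and Wt2 and 22.2 and 39.8 CPM in Ho1 and Ho2. The log2 differences ran from 0.21 in Tnnt2+Myl2- to 0.85 in Cdh5 cells, where Ho1 carried the most blood transcripts, with 0.50 in Upk3b cells (0.32 without Ho2). The value in Cdh5 cells was 0.41 without Ho1. With cells thinned to 5000 UMIs and shallower cells left out, Ho and Wt also overlapped for Hk2 in Tnnt2+Myl2- and Upk3b cells. Mean UMIs per cell in Tnnt2+Myl2- cells were then 0.332 and 0.346 in Wt and 0.339 and 0.350 in Ho. In Upk3b cells they were 0.2375 and 0.258 in Wt and 0.200 and 0.292 in Ho. The libraries stayed apart in Tnnt2+Myl2+, Tnnt2+Shox2+, Cdh5 and Hapln1 cells. In whole libraries Hk2 stood at 40.2 and 45.0 CPM in Wt1 and Wt2 and 63.9 and 63.3 CPM in Ho1 and Ho2. Hk1 gave 2.48 and 2.32 UMIs per UMI of Hk2 in Wt and 1.73 and 1.71 in Ho in Tnnt2+Myl2+ cells, a ratio that includes Hk2 and is given as a description.

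Slc2a1 came nearest to a call among the tested members. In Tnnt2+Myl2- cells it measured 152 and 142 CPM in Wt1 and Wt2 and 171 and 184 CPM in Ho1 and Ho2, the Ho pair above the Wt pair, with a log2 difference of 0.31 (SE 0.10) that did not pass (unadjusted p = 0.00665, edgeR adjusted p = 0.534). Without Ho1 it passed, at 0.32 with an adjusted p of 0.0475. Its libraries overlapped in Tnnt2+Myl2+ cells, and the difference was 0.13 (SE 0.11). Slc2a3 was also higher in both Ho libraries of Tnnt2+Myl2- cells, at 18.2 and 14.9 CPM in the Wt libraries and 19.1 and 19.5 CPM in the Ho libraries, as was Hk1, at 109 and 113 CPM in the Wt libraries and 114 and 124 CPM in the Ho libraries, with differences of 0.28 (SE 0.13) and 0.14 (SE 0.09). These 3 of 8 members in Tnnt2+Myl2- cells stand beside a background of 13% of genes with both Ho libraries higher and 22.3% with both lower.

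Ldha was lower in both Ho libraries in 4 gates. In Tnnt2+Shox2+ cells it measured 1889.9 and 1997 CPM in Wt1 and Wt2 and 1658 and 1584 CPM in Ho1 and Ho2, a difference of -0.27 (SE 0.11) (unadjusted p = 0.0285, edgeR adjusted p = 0.74). In Tnnt2+Myl2+ cells it measured 3419 and 3389 CPM in Wt1 and Wt2 and 2881 and 3209.7 CPM in Ho1 and Ho2, a difference of -0.20 (SE 0.12). Differences in Tnnt2+Myl2- and Cdh5 cells were -0.04 (SE 0.14) and -0.03 (SE 0.12), and in Upk3b cells 0.06 (SE 0.14) with overlapping libraries. No result for Ldha passed the threshold.

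Counted over the 7 gates, 7 of 56 results of the 8 tested members had the Ho pair above the Wt pair and 4 had it below. By gate, the 8 members gave 0 above and 1 below in Tnnt2+Myl2+ and in Tnnt2+Shox2+ cells, 3 and 1 in Tnnt2+Myl2-, 1 and 1 in Cdh5, and 1 and 0 in each of Hapln1, Crabp1 and Upk3b cells. Slc2a3 was the one above in Hapln1 cells, Aldoa in Crabp1 cells and Slc2a1 in Upk3b cells.

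For Pfkl, Aldoa, Pgk1 and Pkm the Ho libraries lay at opposite ends in many gates. Ho1 was the lowest of the 4 libraries in 7 of 7 gates for Pfkl and Pkm and in 5 for Aldoa and Pgk1, while Ho2 was the highest in 7 gates for Pkm and in 5 for the other three. Of 5358 genes with a mean of at least 20 CPM over the gates, Ho1 was the lowest in all 7 gates for 1.79% and in 5 or more for 16.6%, and Ho2 was the highest in all 7 for 2.15% and in 5 or more for 12.6%. Pkm measured 882 and 962 CPM in Wt1 and Wt2 and 779 and 1079 CPM in Ho1 and Ho2 in Tnnt2+Myl2+ cells and 753 and 828 CPM in Wt1 and Wt2 and 709 and 1050.5 CPM in Ho1 and Ho2 in Upk3b cells. Its Ho minus Wt differences in the gates lay between -0.07 in Crabp1 and 0.18 in Upk3b cells. Pgk1 is X-linked, and Xist, the transcript of the inactive X chromosome, stood at 0.0515 and 0.0380 CPM in Wt1 and Wt2 and 254 and 0.0203 CPM in Ho1 and Ho2 in whole libraries. Xist was thus high in Ho1 alone, so the libraries differed in sex. The part of this difference in the values of Pgk1 and of the other members was not tested.

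In whole libraries 3 of the 8 tested members had the Ho pair above the Wt pair and 0 had it below (background 14.9% and 22.7%). Slc2a1 measured 45.2 and 67.6 CPM in Wt1 and Wt2 and 88.7 and 87.0 CPM in Ho1 and Ho2, Slc2a3 9.59 and 8.45 CPM in Wt1 and Wt2 and 12.2 and 18.6 CPM in Ho1 and Ho2 and Hk1 42.5 and 68.4 CPM in Wt1 and Wt2 and 84.7 and 72.9 CPM in Ho1 and Ho2. The differences were 0.69 (SE 0.20), 0.81 (SE 0.21) and 0.56 (SE 0.24), with adjusted p-values of 0.802, 0.802 and 0.802. Single libraries moved them: Slc2a1 was 0.43 without Wt1, Slc2a3 was 0.53 without Ho2, and Hk1 was 0.27 without Wt1 and 0.93 without Wt2. The 10 cardiomyocyte markers, led by Myl7 and with 0 of 10 at 0, summed to 12947 and 25456 CPM in Wt1 and Wt2 and 31294 and 25851 in Ho1 and Ho2, in the same order as the shares of Tnnt2+ cells above, and their part in these values was not tested. Within Tnnt2+Myl2+ cells the differences of the same 3 members were 0.13, 0.13 and -0.08, and within Tnnt2+Myl2- cells they were 0.31, 0.28 and 0.14.

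A term for genotype by gate, which asks whether the Ho and Wt difference varies between the 7 gates, passed for 0 of the 8 tested members and for 0% of the 13406 genes by edgeR, with 0 members at an unadjusted p under 0.05 and 342 genes at that level. DESeq2 was not run on this term. The lowest unadjusted p among the members was that of Hk1, 0.246.

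None of the genes of the 7 pathway lists, 84 genes in 576 gene and fit results, passed between Ho and Wt by edgeR (0) or DESeq2 (0), with 40 (6.94%) at an unadjusted p under 0.05 with edgeR, beside 1.42% to 9.57% of all genes in the same fits. Among the other glycolytic enzymes the median Ho minus Wt difference was -0.03 in Tnnt2+Myl2+ cells and 0.38 in whole libraries, where the medians over all genes were 0.01 and 0.00. The shares of Tnnt2+ cells differed too, at 20.6% and 38.4% in Wt1 and Wt2 and 52.0% and 41.1% in Ho1 and Ho2. Their part in the whole-library median was not tested.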

How the data were processed

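Per the labels and the study's methods, the authors aligned reads to mm10 and counted UMIs per gene and barcode with Cell Ranger 6.1.1, so the deposited matrices hold raw counts; Seurat 4.1.0 was used for their own clustering, not used here. Limits on cells followed the study (500 to 50000 UMIs, 500 to 6000 genes, at most 20% mitochondrial). Scrublet in scanpy 1.11.5 scored doublets, and the expected share with the highest scores was removed, 334 to 746 cells per library. Pairs of libraries shared 14 to 34 barcodes, at most 0.425% of the smaller. Tnnt2, Myl2, Hapln1 and Crabp1 thresholds were set by Otsu's method at 5.62, 7.43, 1.78 and 1.77 UMIs per 10000, and the other gates needed at least 2 UMIs. A gate was tested where every library held at least 20 cells.

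UMIs summed per library and gate were tested with edgeR 4.0.16 (quasi-likelihood test, trimmed mean scaling, filterByExpr, Benjamini-Hochberg adjustment over all genes). Ho and Wt were compared in each gate, and gates were compared in 1 fit with the library as a block, where a call also needed a 2-fold difference. DESeq2 1.42.0 was an alternative. Simulated data were run through edgeR for Ho and Wt in Tnnt2+Myl2+ cells, for the Hapln1 gate and for genotype by gate. No effect was simulated for that last term, and the other fits were not simulated. The text names all 10 members and, from each pathway list, up to 6 called genes with the largest difference, except 1 that is not reported here. The members and lists were chosen with earlier results of these data known.

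GENCODE M21 positions and RefSeq promoters are of GRCm38, and 99.6% of identifiers matched. Counting error limits the precision of low levels.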

Additional observations from a re-analysis of the deposited data

Results flagged for a closer look

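The Epcam gate entered no comparison, because Ho1 holds 0 cells of it. Its Ho2 cells (247, against 299 in Wt1 and 144 in Wt2) stood above both Wt libraries for 7 of the 8 members other than Eno1 and Hk2, by more than 2-fold for Slc2a3 alone. Over all 5666 genes with a mean of at least 20 CPM in that gate, which leaves out Hk1 of the members, Ho2 stood above both Wt libraries for 22.9% and by more than 2-fold for 0.812%. Slc2a3 measured 52.8 CPM in Wt1, 18.9 in Wt2 and 198 in Ho2, while Hk2, chosen for such values and given as a description, was at 32.1 CPM in Wt1, 33.4 in Wt2 and 72.0 in Ho2. Slc2a1 was at 24.4 CPM in Wt1, 18.9 in Wt2 and 35.2 in Ho2. The enzymes of the middle steps measured 63.9 CPM in Wt1, 53.0 in Wt2 and 91.8 in Ho2 for Pfkl, 520.2 CPM in Wt1, 501 in Wt2 and 755 in Ho2 for Aldoa and 494 CPM in Wt1, 316 in Wt2 and 632 in Ho2 for Pgk1. Pkm was at 811 CPM in Wt1, 623 in Wt2 and 1369 in Ho2, and Ldha at 1050.3 CPM in Wt1, 694 in Wt2 and 2052 in Ho2. Hk1 went the other way, at 8.95 CPM in Wt1, 17.4 in Wt2 and 4.50 in Ho2, below both Wt libraries, and Eno1 lay between them, at 608 CPM in Wt1, 373 in Wt2 and 569.6 in Ho2. With 1 Ho library these differences were not tested.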

How the results depend on the processing

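Between Ho and Wt, 0 of 64 member results passed in the report and under all alternatives but one: without Ho1 the count was 1 (range 0 to 1 when a library was left out). Against the other gates 24 results passed, 20 to 25 under other settings apart from 8 when genes needed at least 10 counts in every sum, which leaves fewer genes tested, and 23 to 26 when a library was left out. Pairs of gates gave 9 (9 to 9 without a library, and 6 with that minimum), and the genotype by gate term gave 0 throughout (0 to 0). With the cells past both Cdh5 and Hapln1 as a further gate, an alternative chosen after seeing the data, the count against the other gates was 25. Hk2 in Crabp1 cells reversed without Ho2, to -0.34, where Ho1 alone, with 40 cells, stands for Ho, and the cause was not tested. Of 1036 other values over 59 results, 996 kept their direction and side of the threshold, or moved by less than the replicate spread, 18 fell short of the threshold or 2-fold limit, 6 newly passed and 15 moved further. Aldoa missed the 2-fold limit at -0.97 in Hapln1 and -0.98 in Crabp1 cells when scaled by total counts. Replicate numbers gave no pairing (correlation of same-numbered deviations from -0.18 to 0.02 in gates, -0.47 in whole libraries). With the replicate block 0 members passed, and Eno1b did in Tnnt2+Myl2- cells, at 0.53 (edgeR adjusted p = 0.0239). Crossed replicate numbers also gave 0 members. Depth limits low genes such as Slc2a3, and 2 libraries per genotype limit every Ho and Wt result.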

Other observations

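Of 5 genes of the pyruvate dehydrogenase complex, which feeds pyruvate to the mitochondria, 3 were higher in Tnnt2+Myl2+ cells than in the other gates, Dlat at 1.39, Pdha1 at 1.26 and Pdhb at 1.08 on the log2 scale, with a list median of 1.08, where 11.2% of all genes were higher and 9.44% lower. The pentose phosphate pathway, which draws sugar from glycolysis for NADPH and ribose, had 0 of 8 genes higher and 2 lower there, transketolase (Tkt, -1.83) and Rpia (-1.10), with all 8 at an unadjusted p under 0.05 by edgeR, as were 9228 of 13406 genes. Tkt was higher in Cdh5 cells, at 1.06. Of 15 regulators of glycolysis, 6 were higher and 1 was lower in Tnnt2+Myl2+ cells, among them the pyruvate dehydrogenase kinases Pdk1 (1.98) and Pdk4 (1.61) and, lower, the transcription factor Myc (-1.46). In Cdh5 cells 4 regulators were higher and 2 lower, where 1411 of 13406 genes were higher and 11.6% lower. In Upk3b cells 2 were higher, the RNA-binding protein gene Lin28a (2.58) and the transcription factor Mycn (1.12), and 4 were lower, led by Pdk4 (-3.29), where 7.63% of all genes were higher and 7.87% lower.

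Of 9 hypoxia factors, 1 was higher in Tnnt2+Myl2+ cells, Hif1a (1.26), a share near the 11.2% of all genes. In Cdh5 cells, where 1411 of 13406 genes were higher, 3 were higher, Epas1 (4.21), which encodes HIF2 alpha, Egln3 (2.03) and Hif3a (1.57). Of 16 other hypoxia-inducible genes, 4 were higher in Tnnt2+Myl2+ cells, Bnip3 (2.39), Vegfa (1.37), Ak4 (1.34) and Higd1a (1.05). In Tnnt2+Myl2- cells 4 were higher and 1 was lower (9.82% and 3.88% of all genes), and in Tnnt2+Shox2+ cells 3 were higher and 1 was lower (9.7% and 5.89% of all genes), both led by the vasoactive peptide gene Adm (2.02 and 3.37). In Cdh5 cells 3 were higher and 4 lower, where 1411 of 13406 genes were higher and 11.6% lower. Egln3 stands in both lists.

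Across the 28 sums of library and gate, which share libraries and gates, the genes whose levels followed Eno1 most closely among 5353 genes were Pgam1 (Pearson r = 0.901), the glycolytic mutase of the step before it, Comtd1 (r = 0.8996) and Fkbp3 (r = 0.893). Those closest to Hk2 were Gfm1 (r = 0.937), Pdcd5 (r = 0.927) and Gyg (r = 0.922). These are descriptions across sums that are not independent.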
